A study of Gracilariopsis lemaneiformis with 12 samples.

Results

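In the red seaweed Gracilariopsis lemaneiformis, 37 of 25766 loci were higher after 3 days of indole-3-acetic acid (IAA) than in untreated controls of that day, differed little at day 1, and were not far lower in the controls at day 3 than at day 1. A locus here is either 1 assembled sequence, called Unigene in its identifier, or the sum over all contigs that share a cluster identifier starting with CL. Whether the contigs of a cluster are isoforms, alleles or paralogs is not stated, so a cluster sum may join several genes and a contig's share may be that of an isoform or of a gene. The values are FPKM, read coverage normalised to sequence length and to library depth. Differences are between group means after taking log2(FPKM + 1), a scale that compresses changes of low loci. Membership required a highest group mean of at least 5 FPKM, a day-3 difference (IAA minus control) of at least 0.8, and a day-1 difference smaller than 0.4 in either direction. It also required a control time difference (day 3 minus day 1) above -0.4, and all 3 day-3 IAA libraries above all 3 day-3 controls. The members were thus chosen by FPKM values of all 12 libraries, so the differences between the groups describe that choice and are given without a test. The members were 28 Unigenes and 9 clusters, and the clusters held 81 contigs.

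IAA is an auxin, a growth hormone of plants. In land plants it is perceived by nuclear receptors that mark repressor proteins for degradation, which releases auxin response transcription factors, and it is known for promoting root initiation and for controlling cell elongation and branching. Red algae also contain IAA, but how they perceive it is less well understood. Gracilariopsis lemaneiformis is farmed as a source of agar.

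The 4 groups of 3 libraries were untreated controls and thalli given 100 µM IAA, each at day 1 and day 3, all from strain 981 and all labelled as rhizoids. The source is described as rhizoids of branches and rhizoids of 2 cm primary pieces, and the design text can also be read as a difference in tissue between the days. A change of tissue between days cannot be told apart from time, so this limit applies to every comparison of day 3 with day 1. Nothing states that the 3 libraries of a group came from separate cultures, so the spread between them may be technical.

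Summed FPKM per library ran from 291205 to 308835, and relative depth, read from the FPKM value of 1 read, from 0.977 to 1.02. The 3 day-3 IAA libraries had the lowest relative depths, 0.977 to 0.982. For this estimate 73.5% of 10924 low values lay within 0.1 of a whole number of reads, and absolute depth is unknown. Libraries of 1 group correlated at 0.990 to 0.993 and libraries of different groups at 0.963 to 0.985, across loci, which are not independent replicates. The files pair no identifier with a gene name or a sequence, so the labelled tissue could not be checked against markers, and members are described by their values, without roles, pathways or sequences.

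Across the 37 members the median day-3 difference was 0.95, with a range of 0.81 to 2.71, against a median of 0.21 over the 11044 loci with a mean of at least 1 FPKM. The median day-1 difference was 0.09 in the members and -0.07 over those loci. The median of the members' group means was 4.78 FPKM in day-1 controls, 5.37 in day-1 IAA, 5.91 in day-3 controls and 13.3 in day-3 IAA. As deposited, these medians were close to each other in 3 groups and higher in day-3 IAA. The members' median control time difference was -0.03 as deposited, but 0.51 under both median-of-ratios scaling and quantile normalization, 2 other scalings of the libraries. Over all loci tested that median was -0.35 as deposited, 0.02 under median-of-ratios scaling and -0.03 under quantile normalization. In bulk RNA, fewer cells of a type and less RNA per cell cannot be told apart, and the same holds for more of either.

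**Figure D1:**
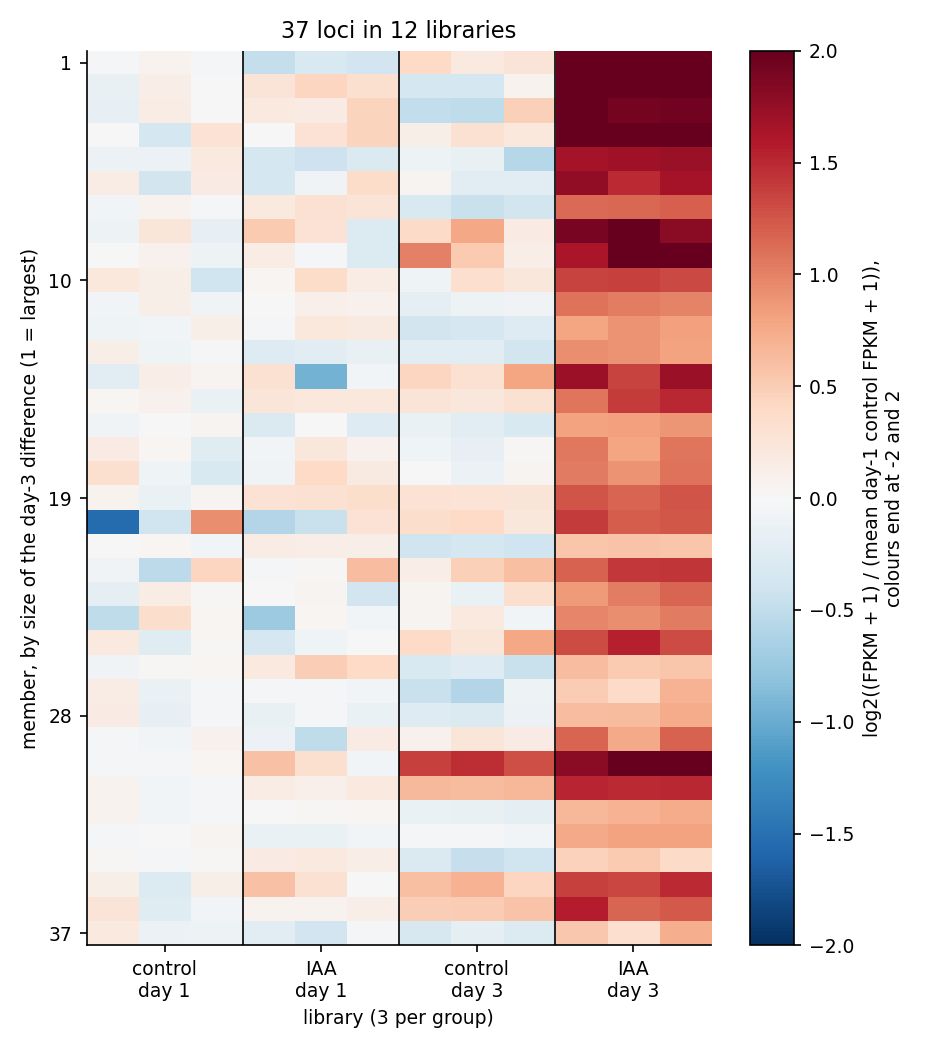
Each row is 1 of the 37 members, ordered by the size of the day-3 difference, and each column 1 of the 12 libraries; colour gives the log2 ratio of FPKM + 1 to the mean of the day-1 controls, with colours ending at -2 and 2. The 3 day-3 IAA columns are the reddest of each row, and they lay above all other 9 libraries in 37 of 37 members.

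The map of members by library shows a property that the membership conditions fix only against the day-3 controls: in all 37 members, each day-3 IAA library was above each of the other 9 libraries. Over all loci tested, 4.96% had that order, but the conditions on the day-1 and control differences favour it, so nothing is read from the count. No member had a library at 0. All 37 passed the filter of a mean of at least 1 FPKM over the 12 libraries.

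By limma's moderated test with Benjamini-Hochberg adjustment over all loci tested, 36 of 37 members were called higher in IAA at day 3, where 38.8% of all loci were called higher and 10.9% lower. The member that missed the call, singled out after its value was seen, was Unigene1961_All, whose day-1 controls read 0.14, 1.51 and 5.30 FPKM. In 33 of 37 members the IAA difference was called larger at day 3 than at day 1 and in 0 smaller, against 35.4% and 7.66% of all loci. Because these contrasts chose the members, the counts add no evidence.

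The libraries' scaling moved these values. When libraries were scaled by median-of-ratios size factors, the median day-3 difference over all loci went from 0.21 to -0.02, and that of the members from 0.95 to 0.68. The member median then stood 0.70 above that of all loci, where it had stood 0.75 above it as deposited. Of the 37 members, 36 kept all 3 day-3 IAA libraries above all 3 day-3 controls under that scaling, but 13 kept a difference of at least 0.8. Of all loci called at day 3, 78% were called higher as deposited, 37.1% under median-of-ratios scaling and 42.2% under quantile normalization. Of those called for the difference between days, 82.2% were called higher as deposited, 32.7% under median-of-ratios scaling and 45.1% under quantile normalization.

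Unigene5161_All had the largest day-3 difference, 2.71. Its day-3 IAA libraries read 15.93, 15.66 and 16.42 FPKM, and its day-3 controls 1.82, 1.45 and 1.54. At day 1 the controls read 1.07, 1.25 and 1.08 FPKM and the IAA libraries 0.54, 0.72 and 0.63. The IAA libraries were thus the lowest of the 4 groups at day 1 and the highest at day 3, and the groups did not overlap on either day. The ratio of group means, IAA to control, was 0.556 at day 1 and 9.98 at day 3.

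Unigene276_All had the second largest difference, 2.28. Its day-3 IAA libraries read 5.65, 5.13 and 5.36 FPKM and its day-3 controls 0.18, 0.18 and 0.59. The day-1 controls read 0.36, 0.66 and 0.51 FPKM, and the day-1 IAA libraries 0.81, 1.03 and 0.88. IAA was above control on both days without overlap, by a small amount at day 1. The day-3 ratio of 17.0 rests on control values near the FPKM of 1 read, whose median over 2050 low sequences was 0.27.

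Unigene8728_All had, after Unigene5161_All, the largest gap between the days, with a day-3 difference 2.30 above that of day 1. Day-3 IAA libraries read 5.95, 6.09 and 6.26 FPKM, and day-3 controls 1.05, 0.97 and 0.48. Day-1 controls read 1.03, 1.03 and 1.51 FPKM and day-1 IAA libraries 0.72, 0.64 and 0.80. As in Unigene5161_All, IAA was below control in every library at day 1 and above it in every library at day 3. The day-1 difference was called lower by limma in Unigene5161_All but was not called in Unigene8728_All. Day-1 values of both members were low, beside a median of 0.27 FPKM for 1 read.

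**Figure D2:**
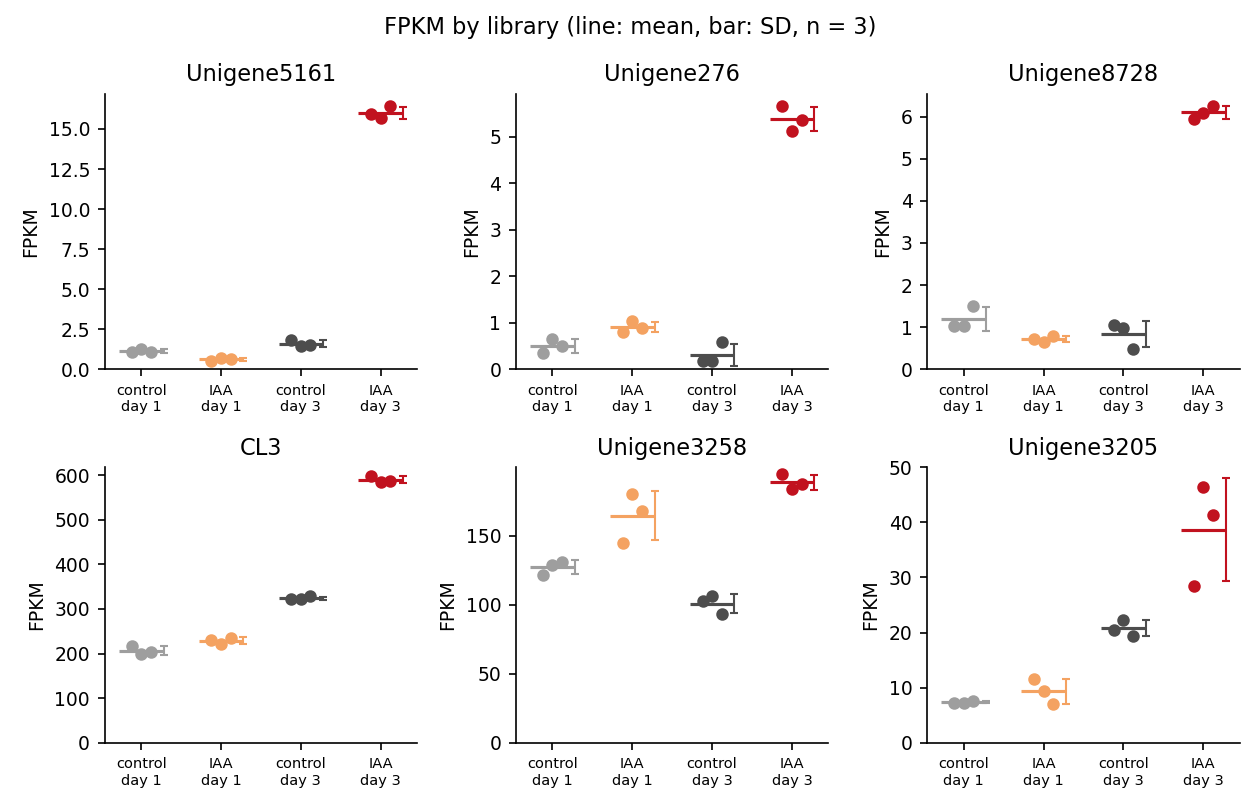
FPKM of 6 members in each library, by group, with points for libraries, lines for means and bars for SD (n = 3). Day-3 IAA is the highest group in each panel, from 5.38 FPKM in Unigene276_All to 589.55 FPKM in CL3.

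The plots of 6 members by library set these 3 low members above 3 others that illustrate a high level or a large control time difference. A day-3 difference of at least 1.7 was found in 6 members. In those 6 the highest library outside day-3 IAA read 2.22 FPKM and the lowest day-3 IAA library 5.13. Their ratios of day-3 means ran from 5.53 to 17.0. The remaining members differed less: 12 lay between 1 and 1.7, and 19 below 1.

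Of the 37 members, 17 had no group mean of 5 FPKM or more other than that of day-3 IAA, so they met the condition on level only through the group in which they were high. All 7 members with a day-3 difference of at least 1.5 were among these 17. Level and difference were both used to choose the members, so no relation between them is read. Those 7 had day-3 IAA means under 20 FPKM. The 15 members with a day-3 IAA mean of at least 20 FPKM had differences of 0.81 to 1.16.

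**Figure D3:**
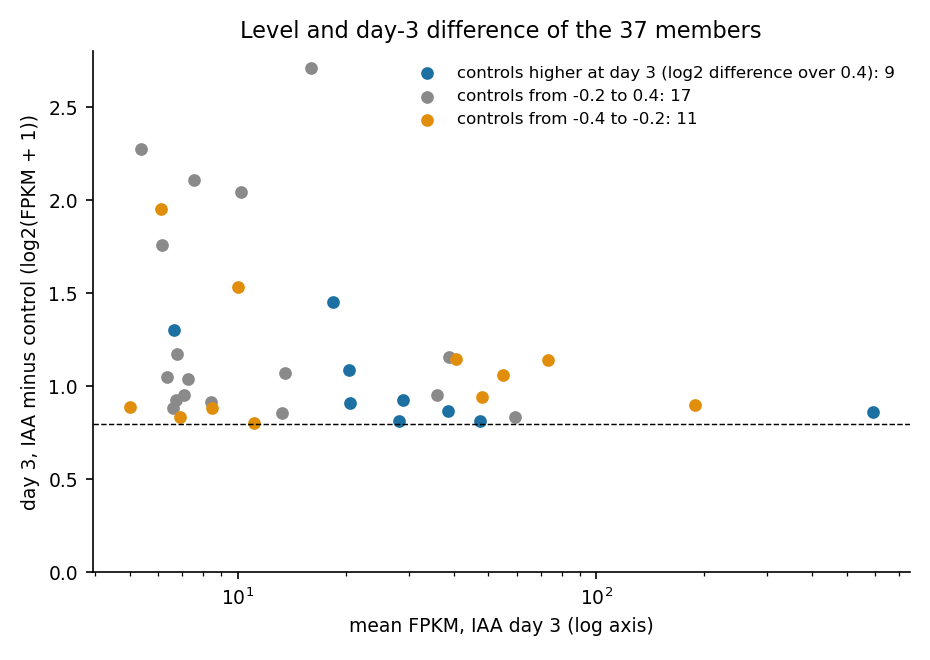
Day-3 difference (IAA minus control, log2(FPKM + 1)) against mean FPKM in day-3 IAA (log axis) for the 37 members, coloured by the control time difference, with the minimum of 0.8 as a dashed line. Both axes were used to choose the members: 19 of the 37 points lie between 0.8 and 1, and the 7 points at 1.5 or more belong to members that met the minimum of 5 FPKM only in day-3 IAA.

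The plot of level against day-3 difference shows how many members lay close to the minimum. The members just inside were CL954 and Unigene16219_All, both at 0.81, and the loci just outside were at 0.79 and 0.78. In all, 12 members lay within 0.1 of the minimum. At the control time limit the nearest members were both at -0.38 and the nearest excluded loci both at -0.43. The day-1 limit had members at -0.39 and 0.37, and excluded loci at 0.41 and 0.43. For the highest group mean, the nearest members read 5.003 and 5.38 FPKM and the nearest excluded loci 4.84 and 4.69.

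As deposited, the condition on the controls removed most candidates. On that scale the median control time difference over all loci tested was -0.35, against 0.02 under median-of-ratios scaling. The counts that follow are those of the deposited scale. Of 479 loci that met the conditions on level and day-3 difference, 373 (77.9%) failed only because the control time difference was -0.4 or less, and 37 (7.72%) were kept. The 373 had a median control time difference of -1.15 and a median day-3 difference of 0.91, close to the members' 0.95. Clusters made up 9.65% of the 373 and 24.3% of the members, against 30.2% of the 5512 loci with a group mean of at least 5 FPKM. A further 38 loci had a day-1 difference of 0.4 or more.

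**Figure D4:**
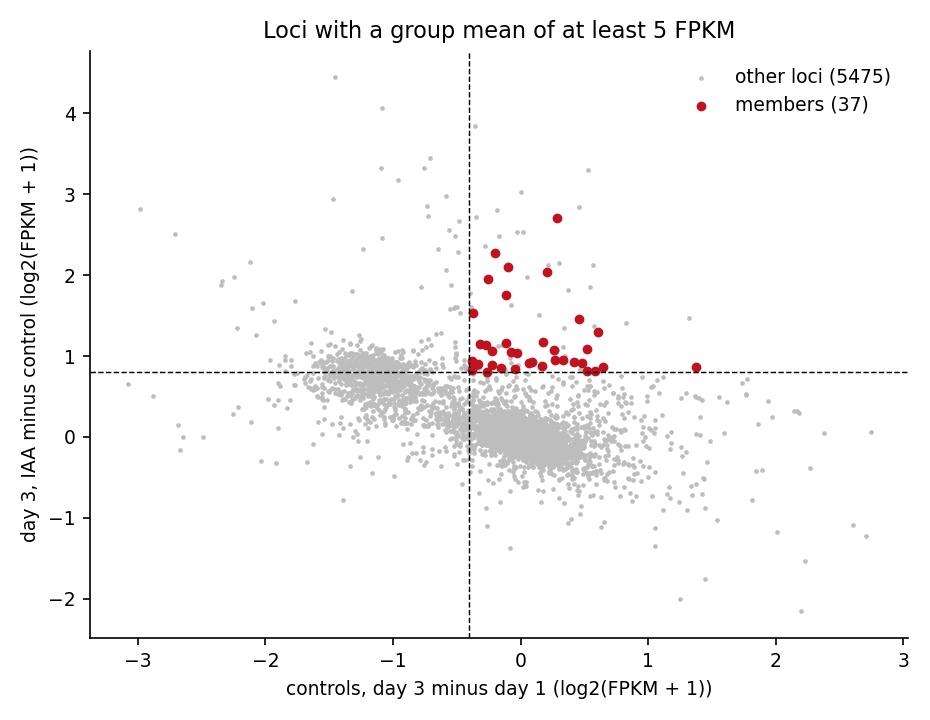
Day-3 difference (IAA minus control) against control time difference (day 3 minus day 1), both on the log2(FPKM + 1) scale, for 5512 loci with a group mean of at least 5 FPKM; members are red and dashed lines mark 0.8 and -0.4. On the deposited scale most loci above 0.8 lie left of -0.4, and the 37 members form a sparse set to the right of it.

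In the plot of control time against day-3 difference the members spread from -0.38 to 1.38 on the time axis, with a median of -0.03. Both axes contain the day-3 controls, with opposite signs, so no relation between them is read. Of the members, 9 had controls over 0.4 higher at day 3, 17 lay between -0.2 and 0.4, and 11 lay below -0.2. The libraries of the controls were separate with day 3 higher in 10 members and with day 3 lower in 10, against 14.3% and 58% of all loci, and overlapped in 17. By limma, 9 members were called higher in the day-3 controls, against 13.6% of all loci, and 10 were called lower, against 57.8%. With median-of-ratios scaling 29 members were called higher and 0 lower, against 42.8% and 28.3% of the loci then tested. With quantile normalization the counts were 23 and 3, against 24.4% and 22.8%. So 10 members were lower in the day-3 controls on the deposited scale, by less than the limit of 0.4, and this depended on the scaling. Of all calls over time in the controls, 19% were higher as deposited, 60.2% under median-of-ratios scaling and 51.7% under quantile normalization.

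Unigene3205_All had the largest control time difference, 1.38. Its controls read 7.26, 7.26 and 7.62 FPKM at day 1 and 20.51, 22.3 and 19.43 at day 3. The IAA libraries read 11.52, 9.44 and 7.04 FPKM at day 1 and 28.38, 46.42 and 41.26 at day 3. IAA and control overlapped at day 1 and were separate at day 3, and the day-3 IAA libraries were the most uneven of the named members. Its difference between the days was 1 of the 4 among the members that missed the call.

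The lowest control time differences, both -0.38, were those of Unigene8389_All and Unigene6630_All. Unigene8389_All read 32.41, 32.92 and 30.94 FPKM in day-1 controls and 24.18, 25 and 24.19 in day-3 controls. Its IAA libraries read 35.73, 35.4 and 34.96 FPKM at day 1 and 47.52, 48.4 and 47.66 at day 3. Controls were lower at day 3 than at day 1 in every library while IAA libraries were higher, and the day-3 difference was 0.94. Unigene6630_All had the same order at a lower level, with group means from 3.45 FPKM in day-3 controls to 6.93 FPKM in day-3 IAA.

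Between the IAA groups, all 37 members were called higher at day 3 than at day 1, and 0 lower, against 13.3% and 20.7% of all loci. The difference ran from 0.20 to 3.38 with a median of 1.12. It was at least 1 in 23 members. This difference follows from the contrasts that chose the members and is not a separate observation. Of all calls over time under IAA, 39.1% were higher as deposited and 70.4% under median-of-ratios scaling.

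At day 1 the libraries of IAA and control overlapped in 24 members, were separate with IAA higher in 9 and separate with IAA lower in 4. Over all loci, 9.63% were separate with IAA higher and 22.7% with IAA lower. By limma 5 members were called higher at day 1 and 3 lower, where 6.44% and 12.5% of all loci were called. Under median-of-ratios scaling 5 members were called higher and 1 lower, against 7.61% and 4.18% of the loci then tested, and under quantile normalization 7 and 1, against 7.77% and 8.94%. Of all loci called at day 1, 34% were higher as deposited, 64.6% under median-of-ratios scaling and 46.5% under quantile normalization. The conditions held the day-1 difference under 0.4, and it ran from -0.39 to 0.37 among the members. Nothing about the members is read from the counts at day 1.

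Unigene3258_All, the member with the second highest day-3 IAA level, shows a day-1 difference near that limit. Its controls read 121.43, 128.72 and 131.25 FPKM at day 1 and 102.5, 106.45 and 93.24 at day 3. The IAA libraries read 144.95, 179.82 and 167.98 FPKM at day 1 and 194.62, 183.56 and 187.74 at day 3. IAA was above control in every library on both days. The lowest day-3 IAA library was 1.02 times the highest day-1 IAA library, so the IAA groups of the different days were barely separate.

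The same measure was then read in libraries left out of the choice of loci. The limits themselves had been set with earlier results of these data known. The left-out libraries may also be technical repeats of those that chose, so the counts do not show independent replication. In each of 3 rounds the libraries with 1 replicate number were left out of all 4 groups, the conditions were applied to the other 8, and the differences were read in the 4 left out. The rounds chose 32, 38 and 38 loci. In the left-out libraries 32, 37 and 38 of these had IAA above control at day 3, against 67.9%, 68.9% and 68.3% of all loci. The difference reached 0.8 in 26, 30 and 30 of them, against 10.7%, 12.1% and 9.77% of all loci. Those shares cover 10940, 11111 and 11093 loci, not limited to the minimum of 5 FPKM that the chosen loci met. The chosen loci had a median day-3 difference of 0.95, 0.99 and 1.02 in the left-out libraries. It was 0.99, 1.04 and 1.00 in the libraries that chose them.

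All conditions at once held less often than the day-3 difference alone. In the left-out libraries 16, 19 and 22 of the chosen loci met all 3 limits on the day-3, day-1 and control time differences, against 0.622%, 0.657% and 0.649% of all loci. The rounds shared 27, 33 and 31 loci with the 37 members.

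Summed over the 37 members, FPKM was 653 ± 14.9 (SD, n = 3) in day-1 controls, 719 ± 22.04 in day-1 IAA, 758 ± 4.62 in day-3 controls and 1507 ± 8.98 in day-3 IAA. This was 0.216%, 0.238%, 0.258% and 0.491% of the summed FPKM of those libraries. Cluster CL3 carried 31.6% to 42.8% of the members' sum in each group. Without CL3 the sums were 446 ± 10.6, 490 ± 23.1, 434 ± 7.14 and 918 ± 5.33 FPKM, and the SD ranges of the day-1 and day-3 controls then overlapped.

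CL3, the member with the highest level, gathers 40 contigs. Its summed libraries read 217.87, 199.4 and 202.38 FPKM in day-1 controls, and 229.8, 220.63 and 235.88 in day-1 IAA. At day 3 the controls read 323.19, 321.57 and 328.27 FPKM and the IAA libraries 598.04, 584.08 and 586.53. The sum was higher at day 3 in both treatments and higher in IAA than in control on both days without overlap. Its control time difference was 0.65 and its day-3 difference 0.86.

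That sum hid different courses among the contigs. The 2 contigs CL3.Contig21_All and CL3.Contig22_All, chosen after their values were seen because they were the most abundant, together averaged 94.3 FPKM in day-1 controls, 103 in day-1 IAA, 235 in day-3 controls and 380 in day-3 IAA. The other 38 contigs together averaged 112, 125, 89.7 and 209 FPKM in the same order. The control time difference was 1.31 for the pair and -0.32 for the rest, and the day-3 differences were 0.69 and 1.21. Near-identical contigs of a cluster can share reads, and the pair had nearly equal values, so levels of single contigs are uncertain.

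The conditions used a cluster's sum and not how it is divided among its contigs, so the division was tested. The shares use the same libraries as that sum, so the test is not independent of the choice of members. Each contig's share was the log2 ratio of its FPKM + 1 to that of the other contigs of its cluster together, and limma was fitted over 4616 contigs of all clusters. Of the 81 member contigs 46 could be tested, and 29 of these belong to CL3. Shares within a cluster depend on each other, so contigs are not separate replicates. At day 1 the share differed between IAA and control in 0 of 46, where 1.99% of all contigs were called higher and 2.06% lower. At day 3 the share was higher in 5 and lower in 3, against 2.73% and 2.34% of all contigs. These 8 calls became 4 without day-3 IAA replicate 1 or 3, and 5 without day-3 IAA replicate 2 or day-3 control replicate 2. They became 5 with replicate number as a block. With a pseudocount of 0.1 FPKM 5 of the 8 were still called. The added 1 FPKM compresses the rise of a low contig more than that of the rest of its cluster. In clusters chosen for a rise of the sum this favours lower shares of low contigs. The 3 contigs of lower share averaged 1.66 to 2.03 FPKM over the 12 libraries.

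The 5 contigs of higher share all belonged to CL3. CL3.Contig29_All read 8.49, 6.93 and 7.19 FPKM in day-3 controls and 31.23, 32.45 and 29.53 in day-3 IAA. At day 1 it read 20.82, 16.59 and 15.4 FPKM in controls and 22.01, 23.88 and 19.9 in IAA. Controls were lower at day 3 than at day 1 and IAA libraries were higher, in every library. Its log2 share was 1.10 ± 0.13 (SE) higher in IAA at day 3, with a limma adjusted p of 0.001023.

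CL3.Contig33_All had another course. It read 10.39, 8.28 and 8.29 FPKM in day-1 controls and 10.51, 7.2 and 9.93 in day-1 IAA. At day 3 it read 2.3, 2.8 and 1.81 FPKM in controls and 9.6, 10.09 and 10.06 in IAA. The day-3 controls stood below the other 3 groups, which lay close together. Its log2 share was 0.89 ± 0.15 (SE) higher in IAA at day 3, with a limma adjusted p of 0.007594. In all 5 contigs of higher share the controls were lower at day 3, by log2 differences of -1.60 to -0.56, so none of the 5 met the control time condition that CL3 met as a sum. The share change and the control time difference contain the same day-3 controls with opposite signs, so no relation between them is read.

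**Figure D5:**
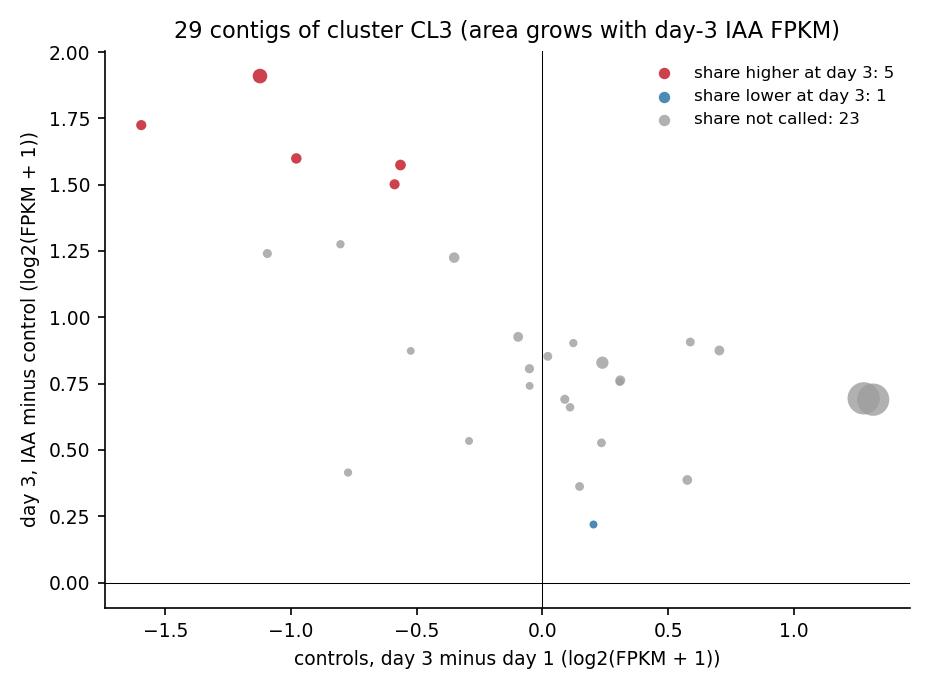
Day-3 difference (IAA minus control) against control time difference (day 3 minus day 1), both on the log2(FPKM + 1) scale, for the 29 tested contigs of CL3; point area grows with mean day-3 IAA FPKM and colour gives the share call. All 29 lie above 0 at day 3, and all passed a minimum mean that includes day-3 IAA. Both axes and the share call use the same day-3 controls. The place of the 5 contigs of higher share at the upper left is thus not a separate observation.

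The plot of CL3 contigs shows 9 of the 29 tested contigs with a control time difference below -0.4, 5 above 0.4 and 15 between. All 29 had IAA above control at day 3 in their means, and 16 by at least 0.8. The 29 had passed a minimum mean that includes day-3 IAA, in a cluster chosen for its day-3 rise, so nothing is read from this count. Of the 40 contigs of CL3, 28 had a day-3 control mean over 1 FPKM, and 26 of these had a higher mean in day-3 IAA. Taken as single sequences, 7 contigs of CL3 met every condition of membership. The 1 contig of CL3 whose share was called lower had a day-3 difference above 0 as well, since a share can fall while the level does not.

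The other contigs of lower share belonged to CL49, which holds 19 contigs. CL49.Contig12_All had a log2 share -0.86 ± 0.19 (SE) in IAA relative to control at day 3, with a limma adjusted p of 0.03013. For CL49.Contig7_All it was -0.71 ± 0.11 (SE), with a limma adjusted p of 0.00537. Both calls were lost with a pseudocount of 0.1 FPKM, at limma adjusted p of 0.1607 and 0.0821. Over all alternatives that tested them, the adjusted p ran from 0.02999 to 0.1607 for CL49.Contig12_All and from 0.006516 to 0.0821 for CL49.Contig7_All. For CL3.Contig29_All and CL3.Contig33_All the highest adjusted p over the alternatives was 0.006459 and 0.03265. With the pseudocount of 0.1 FPKM the log2 share changes were -0.77 for CL49.Contig12_All and -0.55 for CL49.Contig7_All. Of the 19 contigs, 6 had a day-3 control mean over 1 FPKM, and all 6 had a higher mean in day-3 IAA.

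The other 6 clusters with more than 1 contig differed in how the rise of the sum from day-3 control to day-3 IAA was divided. The contig with the largest part carried 98.0% of it in CL85, 84.2% in CL1116, 62.4% in CL1362, 49.7% in CL913, 47.4% in CL1554 and 38.6% in CL1102. In CL85 and CL1116 that contig, CL85.Contig3_All and CL1116.Contig1_All, already held 98.9% and 90.2% of the sum in day-3 controls.

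The authors' deposited table of differentially expressed sequences at day 3 listed 20 of the 28 Unigene members as higher in IAA and 0 as lower, with the authors' log2 ratios of 1.01 to 4.07. Of all 3849 Unigenes with a group mean of at least 5 FPKM, the authors' deposited table listed 8.68% as higher and 0.442% as lower at day 3. The other 8 Unigene members had log2 ratios of group means of 0.83 to 0.97. Of the 81 member contigs the authors' deposited table for day 3 listed 40 as higher and 1 as lower, in 7 of the 9 clusters, against 7.14% and 3.91% of all 7493 contigs. The authors' deposited table for day 1 listed 0 Unigene members, against 1.38% of those Unigenes as higher and 0.753% as lower. It listed 2 member contigs as higher and 0 as lower, where the authors' deposited table held 3.95% and 4.04% of all contigs. Both tables rest on libraries that chose the members, so nothing is read from these counts.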

How the data were processed

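RNA from 12 libraries (4 groups of 3) was measured by sequencing. The authors deposited FPKM per assembled sequence, and separate tables with log2 ratios, p-values and q-values for each day, per the file headers. The submitters' processing notes name Bowtie2 2.2.5; its role is not stated, and assembler, quantifier and annotation were not given in the sources used here. Exact depth is unknown because no counts were used.

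FPKM was summed over contigs of a cluster, giving 25766 loci from 30780 sequences. In R 4.3.3, limma 3.58.1 was fitted to log2(FPKM + 1) with 4 group means and a variance trend, two-sided, over 11044 loci with a mean of at least 1 FPKM. P-values were adjusted by Benjamini and Hochberg, with calls at 0.05; contig shares were fitted likewise. The fits were checked on simulated data. Members and lists were chosen with earlier results of these data known. Named loci were the 2 with the largest day-3 difference, the largest gap between days, the highest and lowest control time difference and the highest day-3 IAA mean, and the 2 contigs with the largest and smallest called share change. No gene list could be applied, as identifiers have no names. Alternatives changed scaling, pseudocount, filters, membership limits and libraries. Because the replicates' origin is not stated, p-values measure only the spread between these libraries.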

Additional observations from a re-analysis of the deposited data

Results flagged for a closer look

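The IAA difference at day 3 was called higher than that at day 1 in 33 of the 37 members by limma's interaction contrast, adjusted over all loci. Of all loci tested, 35.4% were called higher and 7.66% lower for this contrast. Under median-of-ratios scaling 30 members were called higher, against 16.2% of the loci then tested. With quantile normalization 24 members were called higher, against 12.3%. The membership conditions chose the difference between days, so these counts are a description. Among the named members the day-3 difference exceeded the day-1 difference by 3.10 in Unigene5161_All, 2.30 in Unigene8728_All, 1.94 in Unigene276_All, 0.80 in Unigene8389_All, 0.71 in CL3, 0.67 in Unigene6630_All and 0.53 in Unigene3258_All, all on the log2(FPKM + 1) scale. Unigene3205_All is the named member in which the difference was not called. Groups of 3 libraries are too small for a check of single outlying libraries.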

How the results depend on the processing

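Of 607 values recomputed under alternatives, 542 kept their size class, 65 moved and 0 reversed, and the causes were not tested. Most of the 607 are counts, which cannot reverse. The rest are day-3 differences of members chosen for a rise, so the 0 does not show that directions held. Over all loci called at day 3, 78% were higher as deposited, 37.1% under median-of-ratios scaling and 65.2% after rescaling to a common sum. For calls over time in the controls these were 19%, 60.2% and 23.1%. Loci meeting the conditions numbered 23 under median-of-ratios scaling (13 shared with the 37), 26 under quantile normalization (20 shared), 18 with a day-3 difference of at least 1, 22 with a highest mean from 10 FPKM up, and 33 to 37 without single libraries. The members' median day-3 difference was 0.68 under median-of-ratios scaling, 0.81 under quantile normalization, 1.13 with a pseudocount of 0.1 FPKM, and 0.95 to 1.06 without single libraries, an alternative chosen after seeing the data. Under median-of-ratios scaling, calls over all loci were 451 lower at day 1 (1380 as reported), 2364 higher and 4009 lower at day 3 (4290 and 1209), 1753 and 3602 for the difference between days (3907 and 846), 4625 and 3059 for the controls (1500 and 6387), and 2333 and 980 for IAA over time (1465 and 2283). Quantile normalization gave 1623 and 2225 at day 3, 1344 and 1634 for the difference between days, and 2664 and 2489 for the controls. Rescaling to a common sum gave 1994 lower at day 3 and 1294 lower for the difference between days. With a mean of at least 5 FPKM, which 22 members pass, 1527 loci were higher at day 3, 1730 for the difference between days, and 2157 were lower in the controls; 22 members were called at day 3, 19 for the difference and 22 for IAA over time. Members called over time in the controls were 29 higher and 0 lower under median-of-ratios scaling, and 23 and 3 under quantile normalization; 1 member was lower at day 1 under both. Without single libraries, members called at day 1 were 4 to 6 higher and 1 to 3 lower (1 without IAA replicate 1 of day 1). At day 3, 36 to 37 were called higher, and 33 to 35 for the difference between days. In the controls 6 to 11 were called higher and 8 to 11 lower, and 35 to 37 were called for IAA over time. Over all loci, calls without single libraries were 596 to 700 higher and 1144 to 1337 lower at day 1. They were 3676 to 4321 higher at day 3 and 3372 to 3762 higher for the difference between days. These contrasts chose the members, so the member counts under any setting add no evidence. Contig share calls over all contigs were 104 to 178 at day 1 and 154 to 234 at day 3, and 4 to 8 among member contigs at day 3: 4 without day-3 IAA replicate 1 or 3, and 5 without day-3 IAA replicate 2 or day-3 control replicate 2. CL49.Contig12_All lost its call without day-3 control replicate 1 (limma adjusted p = 0.08516) and without day-3 IAA replicate 1, 2 or 3 (0.08309, 0.06639 and 0.1036), and with the replicate block (0.06724); neither CL49 contig was tested at a contig mean of at least 5 FPKM. Same-numbered libraries did not deviate together (r of -0.05 to 0.05 over 12 pairs), so the numbers do not pair them. With a replicate block 36 members were called higher at day 3 and 34 for the difference between days. Over all loci 4185 and 3757 were then called higher. That block left 5 member contigs called for share. Unknown depth limits what can be said of members near 1 FPKM.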

Other observations

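The spread between replicate libraries differed among members and groups. The median coefficient of variation of a member was 14.1% in day-1 controls, 13.0% in day-1 IAA, 8.10% in day-3 controls and 5.91% in day-3 IAA. Membership required separate day-3 libraries of IAA and control, which favours a small spread in those 2 groups. Nothing is therefore read from the order of the groups. Loci were classed by their mean over all 12 libraries. For 12 members with a mean of 5 to 20 FPKM, the median SD on the log2(FPKM + 1) scale was 0.175 in day-1 controls. The 1802 other loci of that class had 0.0893. In day-1 IAA the medians were 0.176 against 0.0811, in day-3 controls 0.0941 against 0.0850, and in day-3 IAA 0.125 against 0.0754. These members thus varied more than other loci of their class in all 4 groups, a comparison chosen after the values were seen and not tested. So did the 8 members at 20 to 50 FPKM and the 2 at 50 FPKM or more. Day-3 IAA raises the mean that sets a member's class, so in the other groups members can lie lower than their class. Other loci of lower classes had a larger SD on this scale, so level within a group was not matched. For 15 members at 1 to 5 FPKM the medians were 0.177 against 0.165, 0.211 against 0.160, 0.150 against 0.166 and 0.142 against 0.162 in the same order of groups, with no common direction.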
